A study of Homo sapiens with 48 samples.

Results

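The genes followed were 10 receptor tyrosine kinases of the melanoma cell surface: ALK, ERBB3, KIT, MET, IGF1R, EGFR, AXL, FGFR1, TYRO3 and DDR1. They were taken by name, with no threshold on a measured value, and are 10 of the 58870 genes counted. The list was chosen with earlier results of these data known, so its shares set against all genes describe this list only. RNA was sequenced from 48 samples of 3 established uveal melanoma cell lines, 92-1, MEL202 and MP41, a cancer of the pigment cells of the eye, with 3 biological replicates in each of 16 groups. Each line received FHT-1015, which inhibits both ATPases of BAF chromatin remodelling complexes (SMARCA4 and SMARCA2), or the solvent DMSO as the control, for 4 h or 24 h. Line 92-1 also received IDE196, an inhibitor of protein kinase C (PKC), or a separate set of DMSO samples, for the same times. All groups are labelled wild type, every sample carries the solvent or a drug, and doses are not given in the sources used here. Each line stands for 1 tumour grown in culture, without the other cells of a tumour, so replicates within a line measure the spread between cultures of that line.

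Receptor tyrosine kinases span the cell membrane, bind a ligand outside the cell and phosphorylate tyrosines on themselves and on adaptor proteins inside it, which switches on the MAPK and PI3K pathways. In pigment cells KIT with its ligand KITLG guides the migration and survival of melanocyte precursors, MET binds HGF, and ERBB3 pairs with other ERBB receptors to bind neuregulins. In melanoma, AXL and EGFR are known as receptors of cells with low levels of the pigment cell factor MITF, whereas ERBB3 and TYRO3 are often found with SOX10 and MITF.

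The libraries held 11394088 to 32317711 reads assigned to genes. With DMSO the 9 melanocyte markers (MLANA, PMEL, TYR, TYRP1, DCT, MITF, SOX10, PAX3 and S100B) summed to between 7810 and 23000 CPM (reads of a gene scaled to library size), with 8 or 9 of 9 above a mean of 1 CPM. None of the 3 endothelial or 4 immune markers reached that level in DMSO. The fibroblast list had 1 to 3 of 5 above it, summing to between 2.35 and 42.2 CPM, and the epithelial list 0 to 3 of 4, summing to between 1.04 and 13.7 CPM. One library, MEL202 FHT-1015 4 h replicate 2, had reads in 17592 genes, the lowest number, against at least 20023 in the other libraries.

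In DMSO, MET had the highest median RNA level per length of the 10 receptors in each line, KIT was read almost only in MP41, and ALK almost only in 92-1. Positions are those of GRCh38 in GENCODE 29. To compare genes, CPM were divided by exon length in kilobases (RPKM), and values are the lowest, median and highest of 6 DMSO samples (both times together). MET, the HGF receptor (chr7:116672390-116798386), stood at 14.6, 16.5 and 20.8 RPKM in 92-1. It stood at 57.5, 83.3 and 101 RPKM in MEL202 and at 47.9, 59.8 and 70.2 RPKM in MP41. Thus no sample of 92-1 reached the range of either other line. Next to MET in 92-1 came ERBB3 and TYRO3 (medians of 14.4 RPKM for ERBB3 and 12 for TYRO3), then DDR1, a collagen receptor, IGF1R, the receptor of insulin-like growth factors, and FGFR1, a fibroblast growth factor receptor, with medians of 7.9, 6.96 and 6.75 RPKM. In that order the ranges of MET, ERBB3 and TYRO3 overlapped from one to the next, as did those of DDR1, IGF1R and FGFR1, whereas TYRO3 and DDR1 did not overlap. In MEL202 MET stood apart from the rest, DDR1 and TYRO3 (medians of 13.6 RPKM each) overlapped, and ERBB3, FGFR1 and IGF1R followed with medians of 6.76, 5.5 and 5.15 RPKM that overlapped from one to the next. In MP41 the ranges of MET and DDR1 (median 33.8 RPKM) overlapped, as did those of KIT, TYRO3, ERBB3 and IGF1R in turn, while FGFR1 and EGFR each stood apart from their neighbours.

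**Figure D1:**
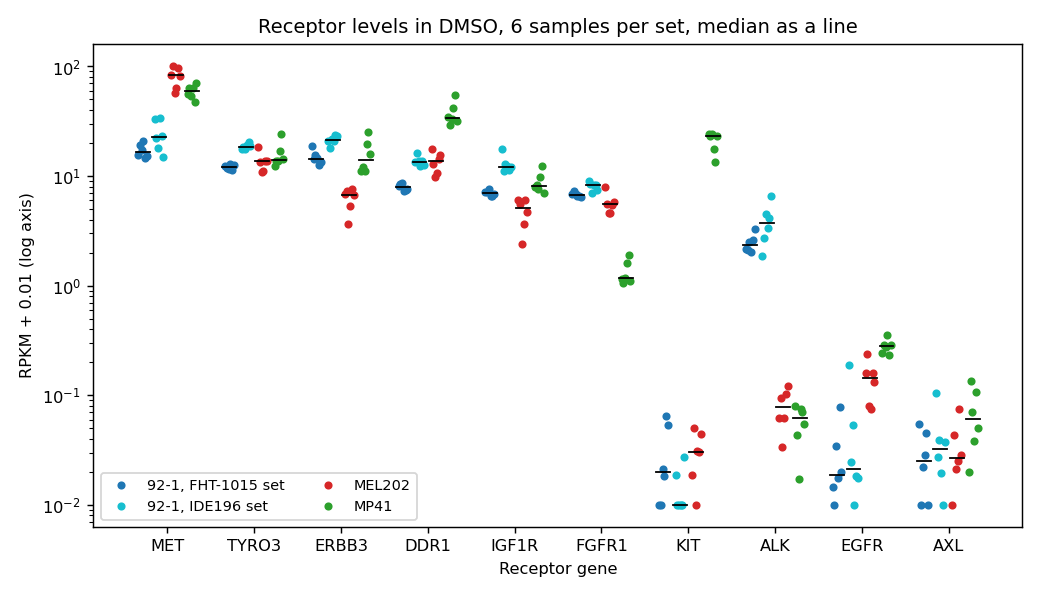
Level of each receptor gene in DMSO, as RPKM plus 0.01 on a log axis, one point per sample, 6 samples in each of 4 sets, with the median as a line. MET has the highest median in every set, ALK is near the other expressed receptors only in the 2 sets of 92-1, and KIT only in MP41, where its median is 23.3 RPKM.

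KIT, the receptor of stem cell factor (chr4:54657918-54740715), stood at 13.3, 23.3 and 24.4 RPKM in MP41, below MET and DDR1 alone. In the 6 DMSO samples of the FHT-1015 experiment 92-1 had 11 reads of KIT and MEL202 had 16, against 14362 in MP41. Per read counted in genes that was 1250 times as many in MP41 as in 92-1 (95% interval 699 to 2510) and 1030 times as many as in MEL202 (633 to 1800). These exact intervals cover counting error only, and reads are not independent molecules.

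ALK, a receptor of the nervous system (chr2:29192774-29921566, minus strand), stood at 2.03, 2.32 and 3.27 RPKM in 92-1. Its medians in MEL202 and MP41 were 0.0685 and 0.0525 RPKM, from 70 and 42 reads in 6 samples each. EGFR (chr7:55019021-55211628) went the other way, with 24 reads in 92-1, 207 in MEL202 and 417 in MP41, and never above 0.346 RPKM. AXL, which binds GAS6 (chr19:41219203-41261766), was near 0 in every line, with 10, 15 and 37 reads in 92-1, MEL202 and MP41. FGFR1 (chr8:38400215-38468834, minus strand) had a median of 1.16 RPKM in MP41 against 6.75 in 92-1 and 5.5 in MEL202.

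These levels were tested between lines with edgeR's quasi-likelihood test (adjusted p over all genes tested) in a fit of the 18 DMSO samples of the FHT-1015 experiments, in which 9 of the 10 receptors passed the filter on low counts and AXL did not. MEL202 differed from 92-1 in 6 of the 9 (52.2% of all genes tested), MP41 from 92-1 in 7 (65.5%) and MP41 from MEL202 in 7 (56.1%), so the share of receptors was above, but of the order of, that of all genes. KIT is among the 7 in both comparisons of MP41. It passed the filter only through MP41, as no DMSO library of 92-1 or MEL202 had over 6 reads of it. Its calls are thus no independent support of these shares. MET was higher than in 92-1 by 2.25 (SE 0.16) on the log2 scale in MEL202 and by 1.81 (SE 0.16) in MP41, with edgeR adjusted p of 1.34e-09 and 1.3e-08. ALK was lower by a log2 difference of -5.14 (SE 0.29) in MEL202 and -5.70 (SE 0.31) in MP41. FGFR1 was lower in MP41 than in 92-1, with a log2 difference of -2.36 (SE 0.15), and DDR1 (chr6:30876421-30900156) higher by 2.25 (SE 0.16). EGFR was higher than in 92-1 by 2.98 (SE 0.52) in MEL202 and 4.05 (SE 0.51) in MP41. Of its 24 reads in 92-1, 14 came from the 24 h replicate 2 library, and without 1 library at a time the EGFR values ranged from 2.68 to 3.9 and from 3.75 to 4.98, called in each fit and highest without 92-1 DMSO 4 h replicate 3. ERBB3 was lower in MEL202 than in 92-1 (log2 difference -1.23, SE 0.17, edgeR adjusted p 5.7e-06). TYRO3 was the most even, with log2 differences from 0.17 to 0.39 between lines, of which that between MP41 and 92-1 passed the test (edgeR adjusted p 0.0219). That call of TYRO3 was lost without 92-1 DMSO 24 h replicate 2 (adjusted p 0.0504) or MP41 DMSO 24 h replicate 2 (0.0694).

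The separate DMSO samples of 92-1 that belong to IDE196 gave the same first 7 receptors, but at higher levels for several: IGF1R had a range of 11.1 to 17.7 RPKM there against 6.57 to 7.59, TYRO3 17.6 to 20.5 against 11.4 to 12.9, and DDR1 12.4 to 16.1 against 7.36 to 8.71. The sets of these 3 genes did not overlap. Smaller differences between lines thus depend on the set of 92-1 taken, and the test above used the FHT-1015 set alone. The median of TYRO3 in MP41 (14.1 RPKM) was above that of the FHT-1015 set (12) and below that of the IDE196 set (18.6). DDR1 in MEL202 (9.78 to 17.6 RPKM) overlapped the IDE196 set but not the other. Each drug is therefore compared only with its own DMSO samples.

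With FHT-1015, ERBB3, MET and TYRO3 fell in all 3 lines by 24 h, KIT rose in MP41, and DDR1, FGFR1, ALK and IGF1R were called in 1 or 2 lines. AXL in MEL202 and MP41, and KIT in MEL202, had their highest reads with FHT-1015 at 24 h, and at most 13 reads in any other library of the line. In 92-1, 7 receptors passed the filter on low counts. At 4 h 5 of the 7 changed (29.5% of all genes tested were called), and these 5 all fell (16.7% of all genes fell). At 24 h all 7 changed (60.6%), 5 lower and 2 higher, against 31.4% of all genes lower and 29.2% higher. In MEL202 and MP41 all 10 were tested. At 24 h 5 changed in MEL202 (18.8%), 3 lower and 2 higher, against 10.1% of all genes lower and 8.69% higher. In MP41 7 changed (36.1%), 5 lower and 2 higher, against 18.7% lower and 17.4% higher. The median log2 fold change over the receptors tested at 24 h was -1.04 in 92-1, 0.09 in MEL202 and -0.52 in MP41, against -0.00, -0.01 and 0.07 over all genes. AXL and KIT in MEL202, and AXL and ALK in MP41, passed the filter on low counts only through the libraries with FHT-1015 at 24 h, where they were high. The calls of AXL and KIT there, and the value of ALK, which was not called, are thus no independent support of a rise. Without those genes 3 of 8 receptors changed in MEL202, 0 higher and 3 lower with a median of -0.12, and 6 of 8 in MP41, 1 higher and 5 lower with a median of -0.86. Treated and DMSO libraries did not overlap for 6 of 7 receptors at 4 h and 7 of 7 at 24 h in 92-1 (43.0% and 64.3% of all genes), for 0 and 5 of 10 in MEL202 (9.3% and 51.2%) and for 4 and 8 of 10 in MP41 (19.5% and 42.3%). The 24 h counts include AXL and KIT in MEL202 and AXL and ALK in MP41, whose lack of overlap is no independent support either. The change from 4 h to 24 h was itself called for 4 of 7 receptors in 92-1 (45.5%), 2 of 10 in MEL202 (6.89%) and 7 of 10 in MP41 (18.6%). Leaving out 1 library at a time gave 0 to 2 in MEL202 and 3 to 7 in MP41. At 24 h 1046 of 13677 genes tested in each line were lower in all 3 (7.65%), and the receptors among them were ERBB3, MET and TYRO3, while 0 receptors were among the genes higher in all 3 (5.04%).

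At 4 h edgeR called 0 of the 10 receptors in MEL202 (0.679% of all genes) and 0 in MP41 (0.225%). An unadjusted p under 0.05 was reached by 1 receptor in MEL202, ERBB3 (8.58% of all genes), and by 2 in MP41, ERBB3 and KIT (5.78%). DESeq2 called 0 receptors in MEL202 (2.36% of all genes) and 1 in MP41 (1.09%), and limma-voom called 0 (0.723%) and 2 (4.18%). Precision differed between the lines. Counts were simulated with a common spread for all genes of an experiment and few genes changed at 4 h. Of genes changed 2-fold, 82.3% were recovered for 92-1, 24% for MEL202 and 48.5% for MP41. These shares are not the power for the receptors, whose own spread was not used. Without the MEL202 library with the fewest genes read, the MEL202 counts stayed at 0 at 4 h and 5 at 24 h.

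**Figure D2:**
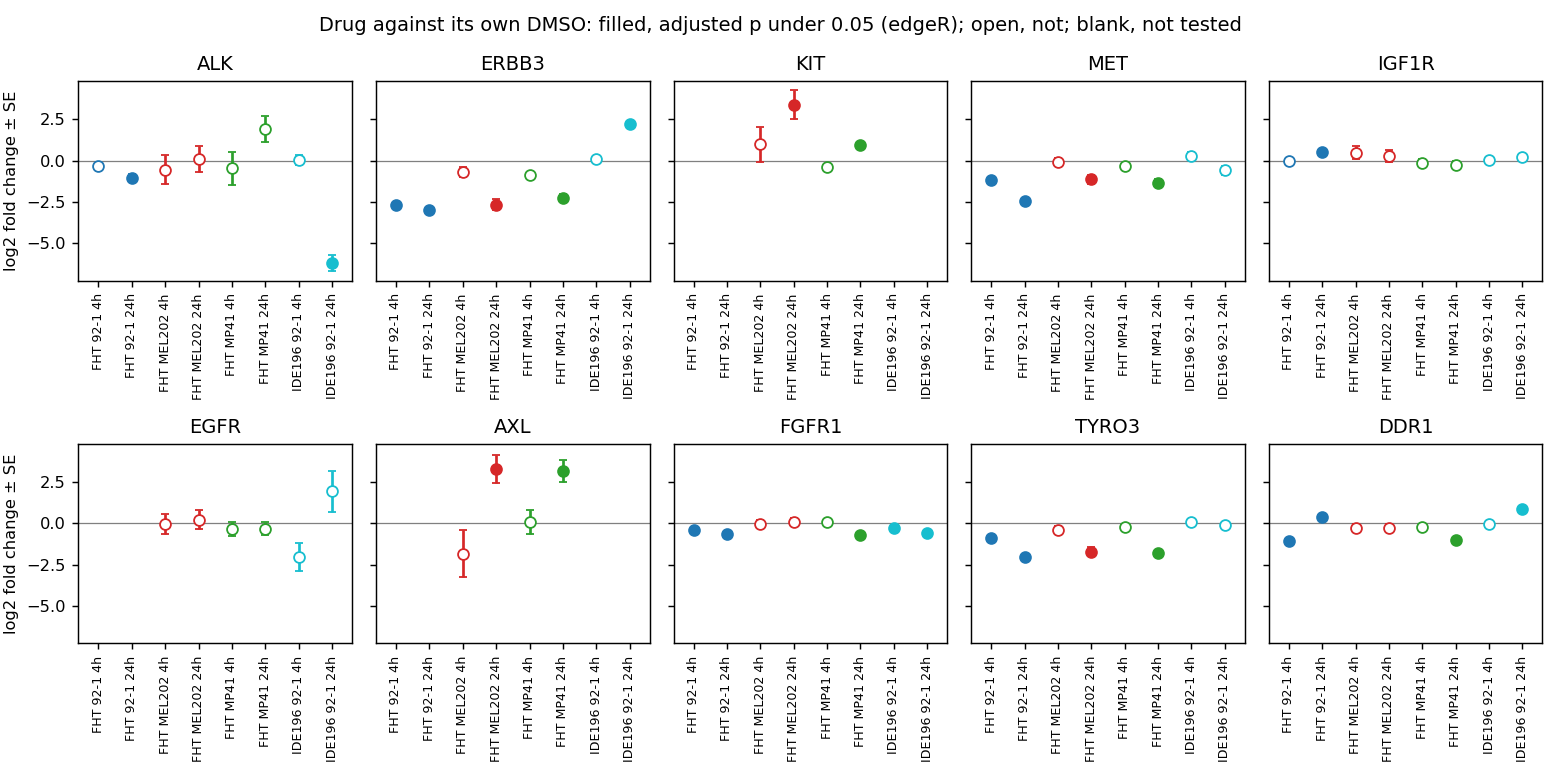
Log2 fold change of each receptor over its own DMSO samples, ± SE, in the 8 drug comparisons, with edgeR adjusted p under 0.05 as filled points, other tested values as open points and untested genes left blank. ERBB3, MET and TYRO3 are filled and below 0 in each line with FHT-1015 (FHT) at 24 h, and with IDE196 at 24 h ALK is at -6.21 and ERBB3 at 2.19.

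ERBB3 (chr12:56076799-56103505) has almost no kinase activity of its own and signals by pairing with ERBB2 or EGFR. Of the followed receptors that were tested, it showed the largest fall with FHT-1015 in each line at 24 h. In 92-1 it stood at 171, 128 and 141 CPM with DMSO at 4 h and at 23.3, 24.4 and 19.9 CPM with FHT-1015. At 24 h the DMSO values were 132, 114 and 121 CPM and the FHT-1015 values 15.8, 13.7 and 15.4 CPM. All treated libraries lay far below all DMSO libraries at both times. FHT-1015 changed ERBB3 by a log2 value of -2.68 (SE 0.11, edgeR adjusted p 5.74e-10) at 4 h and -2.98 (SE 0.12, adjusted p 1.82e-11) at 24 h, and the difference between the times was not called (adjusted p 0.128). The counts come from bulk RNA, in which fewer cells of a kind and less RNA per cell cannot be told apart.

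In MEL202, ERBB3 stood at 61.3, 66.5 and 33.1 CPM with DMSO at 4 h and at 37.6, 41.8 and 19.3 CPM with FHT-1015, so the groups overlapped. At 24 h it stood at 48.3, 68.5 and 61.0 CPM with DMSO and at 8.0, 9.35 and 9.91 CPM with FHT-1015, which no longer overlapped. In log2 terms the values were -0.68 (SE 0.31, edgeR adjusted p 0.565) at 4 h, not called, and -2.66 (SE 0.33, adjusted p 0.000118) at 24 h.

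In MP41, ERBB3 stood at 101, 110 and 101 CPM with DMSO at 4 h and at 43.8, 69.2 and 54.7 CPM with FHT-1015. At 24 h the values were 176, 227 and 143 CPM against 38.1, 35.8 and 33.3 CPM. The groups were apart at both times. The log2 fold change was -0.89 (SE 0.19) at 4 h, short of the threshold with an edgeR adjusted p of 0.0779, and -2.24 (SE 0.19, adjusted p 1.93e-06) at 24 h. The 4 h value passed under 5 of 7 alternatives, with adjusted p from 2.91e-05 to 0.0897 over the 7. Without 1 library it passed in 2 of 12 fits, without MP41 DMSO 24 h replicate 2 (adjusted p 0.00947) or 3 (0.012), and in the others its adjusted p was up to 0.51. The 4 h effect on ERBB3 differed among the lines in a joint fit of 36 samples (edgeR adjusted p 0.000597, 1.38% of all genes called), and it was the 1 receptor of 10 to do so. At 24 h the difference among lines was not called for ERBB3 (adjusted p 0.384).

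**Figure D3:**
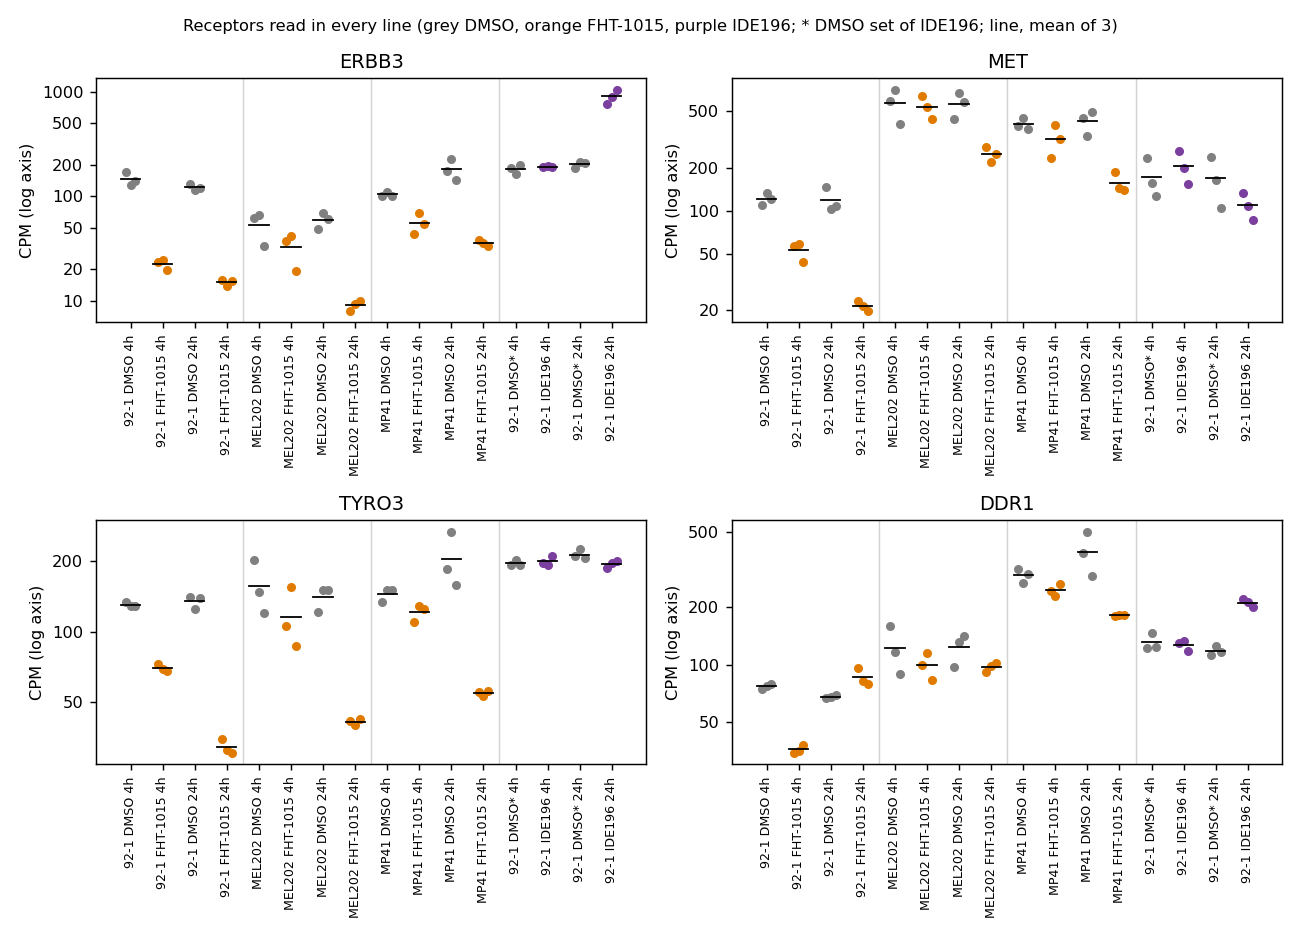
CPM on a log axis of ERBB3, MET, TYRO3 and DDR1 in each of the 48 samples, 3 points per group, with the mean as a line. ERBB3 with FHT-1015 lies between 8.0 and 38.1 CPM at 24 h in the 3 lines, and with IDE196 at 24 h between 763 and 1050 CPM.

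MET fell at both times in 92-1 and at 24 h in the other lines. In 92-1 the DMSO values at 4 h were 110, 134 and 122 CPM and the FHT-1015 values 56.9, 58.3 and 43.5 CPM. At 24 h they were 146, 103 and 108 CPM against 23.3, 21.5 and 19.8 CPM. The groups did not overlap, and the log2 fold change went from -1.18 (SE 0.13, edgeR adjusted p 5.68e-06) to -2.42 (SE 0.14, adjusted p 9.16e-10), a further change of -1.24 that was itself called (adjusted p 6.94e-05). In MEL202 at 24 h MET stood at 445, 678 and 580 CPM with DMSO and 280, 220 and 250 CPM with FHT-1015 (log2 fold change -1.14, SE 0.25, edgeR adjusted p 0.00626). In MP41 at 24 h it stood at 449, 337 and 494 CPM against 187, 145 and 139 CPM (log2 fold change -1.34, SE 0.21, adjusted p 0.000269). Neither pair of groups overlapped. Among the lines the 24 h effect on MET differed (0.00998 by the edgeR joint fit, adjusted; 12% of all genes called), with the largest fall in 92-1, the line with the lowest MET.

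TYRO3 (chr15:41557675-41583586) and AXL belong to the TAM family, whose receptors bind GAS6 and protein S. At 24 h TYRO3 was lower in MEL202 and MP41. AXL was higher there, but it passed the filter on low counts only through those treated libraries, so its rise is no independent support. TYRO3 stood at 134, 129 and 128 CPM with DMSO in 92-1 at 4 h and at 72.4, 69.0 and 67.6 CPM with FHT-1015. At 24 h it stood at 141, 125 and 139 CPM against 35.0, 31.3 and 30.4 CPM. In each case the highest treated library was below the lowest DMSO library. TYRO3 thus fell by log2 values of -0.88 (SE 0.08, edgeR adjusted p 4.54e-07) at 4 h and -2.02 (SE 0.08, adjusted p 1.77e-11) at 24 h.

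At 24 h TYRO3 in MEL202 went from 121, 151 and 150 CPM with DMSO to 41.5, 40.1 and 42.2 CPM with FHT-1015, and in MP41 from 184, 267 and 158 CPM to 55.1, 53.2 and 56.0 CPM. The treated libraries of each line were close to each other and below every DMSO library. The log2 fold changes were -1.72 (SE 0.26, edgeR adjusted p 0.000453) and -1.78 (SE 0.17, adjusted p 4.51e-06), and the effect on TYRO3 at 24 h was not called as different among the 3 lines (adjusted p 0.768). A pseudogene copy of TYRO3 is nearly identical in sequence, so some of its reads may have been counted elsewhere or left out, in treated and DMSO samples alike.

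For MET and TYRO3, which fell in the 3 lines, and for ALK, the bases before the start sites are shown, to set their letters beside the values. RefSeq (GRCh38.p14) start sites were matched for 8 of the 10 receptors (the others are ERBB3 and FGFR1), 19 sites in all, and the 250 bases before each were searched on both strands for CACGTG and CATGTG, bound by MITF, ACAAAG and ACAATG, bound by SOX factors, and TGANTCA, of which AP-1 binds the forms TGACTCA and TGAGTCA. Over 35116 such windows of all genes these were found in 6.34%, 9.42%, 13.7%, 9.29% and 6.57%. None of the 5 motifs was in the window of MET (chr7:116671946-116672195, plus strand), nor in that of the upstream start of ALK (chr2:29921587-29921836, minus strand). The first start of TYRO3, listed 1.5 kb into the gene, had TGAATCA, which matches TGANTCA but is neither of the AP-1 forms, 220 bases before it, shown in capitals in the stretch outside annotated exons (chr15:41558962-41559033, plus strand). The window of a second start of TYRO3, 2.3 kb into the gene (chr15:41559722-41559971, plus strand), held none of the 5. A start listed 697.7 kb into ALK had CACGTG 117 bases before it, again in capitals, in an intron (chr2:29223901-29224073, minus strand). Sequences run 5′ to 3′ along the gene's strand, and a match is only a match of letters.
MET: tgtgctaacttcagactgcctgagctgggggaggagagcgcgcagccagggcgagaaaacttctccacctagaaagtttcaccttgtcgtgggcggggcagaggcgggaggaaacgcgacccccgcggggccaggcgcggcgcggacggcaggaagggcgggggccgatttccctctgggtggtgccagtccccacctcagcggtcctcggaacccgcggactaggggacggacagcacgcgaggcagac
TYRO3: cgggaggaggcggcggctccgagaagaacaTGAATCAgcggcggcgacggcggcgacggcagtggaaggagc
ALK, upstream start: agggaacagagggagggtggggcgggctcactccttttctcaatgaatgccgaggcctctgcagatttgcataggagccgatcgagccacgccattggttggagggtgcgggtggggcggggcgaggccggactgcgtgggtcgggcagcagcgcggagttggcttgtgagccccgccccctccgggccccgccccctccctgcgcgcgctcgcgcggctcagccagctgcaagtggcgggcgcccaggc
ALK, internal start: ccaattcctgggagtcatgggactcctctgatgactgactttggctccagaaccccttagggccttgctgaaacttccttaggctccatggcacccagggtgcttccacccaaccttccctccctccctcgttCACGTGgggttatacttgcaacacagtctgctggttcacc

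Elsewhere motifs were found before the second start of EGFR, where CATGTG and TGAGTCA share bases, before the second start of AXL (CATGTG and ACAAAG) and before 2 of the 8 starts of DDR1. The windows of KIT and IGF1R held none.

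AXL was at or near 0 in DMSO and was read at a low level in MEL202 and MP41 after 24 h of FHT-1015. In MEL202 it had 2, 6 and 3 reads with DMSO (0.0774, 0.337 and 0.0949 CPM) and 23, 56 and 31 reads with FHT-1015 (1.06, 2.18 and 1.44 CPM). In MP41 it had 3, 9 and 5 reads with DMSO and 32, 79 and 63 with FHT-1015, the latter 1.65, 2.98 and 2.39 CPM. Every treated library was above every DMSO library in both lines. No other library had over 6 reads of AXL in MEL202 or 13 in MP41, and the gene was tested only because of the treated group, so the edgeR values are given as a description. The log2 fold change was 3.30 (SE 0.83, edgeR adjusted p 0.0129) in MEL202 and 3.17 (SE 0.66, adjusted p 0.00234) in MP41, and the reads alone gave ratios of 11.6 (95% interval 6.23 to 23.9) and 9.58 (5.81 to 16.8). In 92-1 at 24 h it had 5 reads with DMSO and 3 with FHT-1015 over 3 libraries each, too few to test.

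KIT rose in MP41 at 24 h. Its reads in MEL202 were highest with FHT-1015 at 24 h, but there it was tested only because of that group. In MP41 it stood at 134, 130 and 136 CPM with DMSO at 4 h and at 82.7, 101 and 118 CPM with FHT-1015, and at 24 h at 97.9, 74.0 and 129 CPM against 184, 162 and 200 CPM. FHT-1015 libraries were thus below the DMSO libraries at 4 h and above them at 24 h, without overlap at either time. The log2 fold change was -0.40 (SE 0.19, edgeR adjusted p 0.852) at 4 h, which was not called, and 0.96 (SE 0.19, adjusted p 0.0014) at 24 h. The difference between the times was 1.36 (SE 0.26, adjusted p 0.00313).

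In MEL202 at 24 h KIT had 3, 2 and 6 reads with DMSO (0.116, 0.112 and 0.19 CPM) and 24, 46 and 34 with FHT-1015 (1.11, 1.79 and 1.58 CPM), again without overlap. No other MEL202 library had over 6 reads of KIT, so here too the gene was tested only because of the treated group. Its log2 fold change was 3.39 (SE 0.88, edgeR adjusted p 0.0156) and its read ratio 11 (95% interval 5.87 to 22.6). The treated level remained far below that of MP41. The 92-1 libraries had 10 reads with DMSO and 8 with FHT-1015 at 24 h, a ratio of 1.03 (0.353 to 2.89). KIT was among the receptors whose 24 h effect was not the same in the 3 lines (edgeR adjusted p 0.0048). In MEL202 the calls of AXL and KIT at 24 h rest on few reads: AXL lost its call without DMSO replicate 1 or 3 or FHT-1015 replicate 2 (edgeR adjusted p 0.0795, 0.0855 and 0.0736), and KIT without any 1 of the DMSO replicates 1, 2 and 3 or of FHT-1015 replicates 2 and 3 (0.0795, 0.0662, 0.0644, 0.0643 and 0.0582), with log2 fold changes from 2.95 to 3.67 in those 8 fits.

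**Figure D4:**
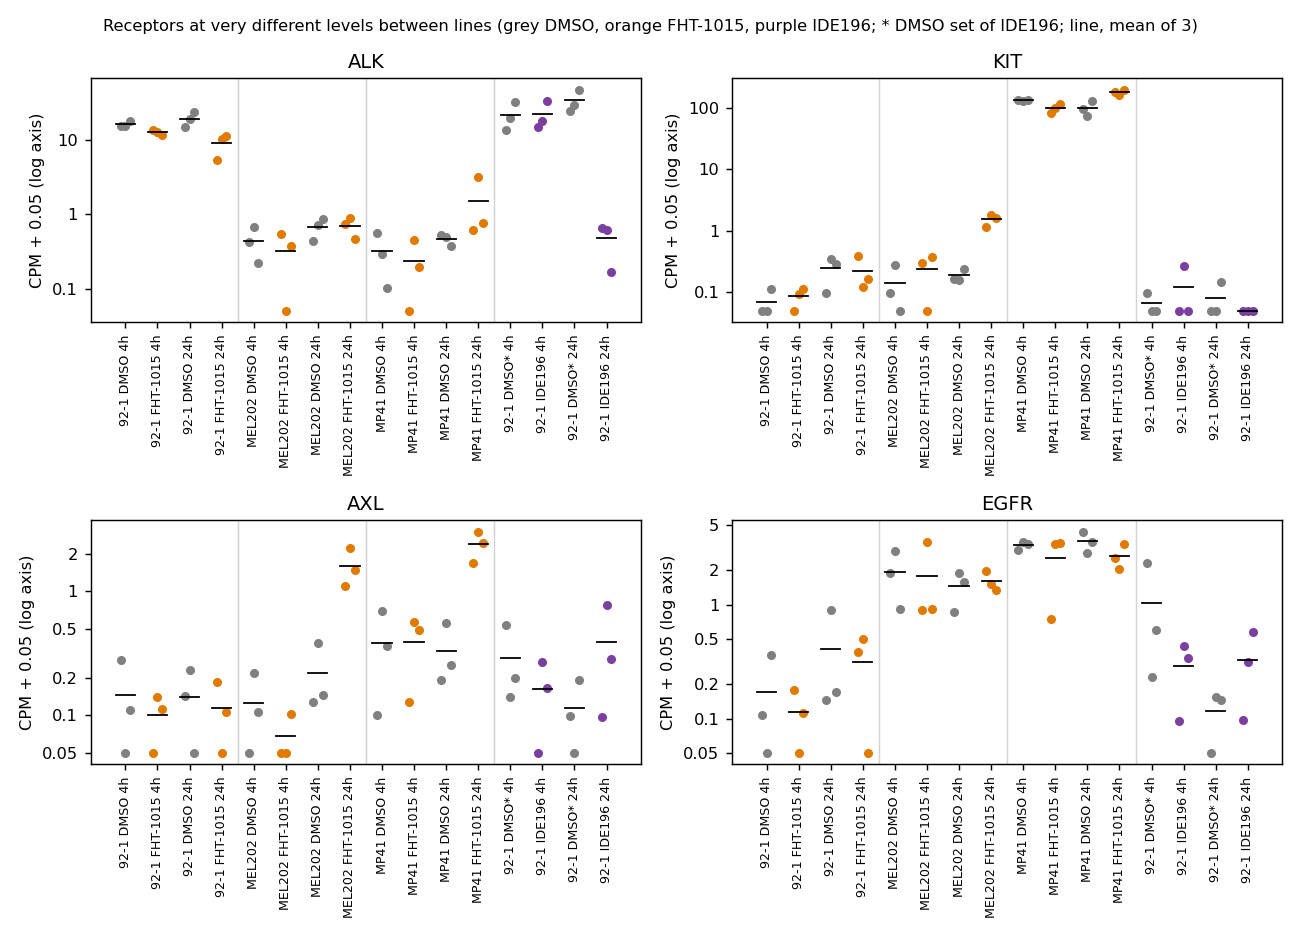
CPM plus 0.05 on a log axis of ALK, KIT, AXL and EGFR in each of the 48 samples, 3 points per group, with the mean as a line. AXL is above 1 CPM in the 6 libraries of MEL202 and MP41 with FHT-1015 at 24 h, and ALK falls from between 24.7 and 48.5 CPM to between 0.118 and 0.605 CPM with IDE196 at 24 h.

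Marker sums moved beside these changes. With FHT-1015 at 24 h the 9 melanocyte markers summed to between 4650 and 5360 CPM in 92-1 against 19000 to 23000 with DMSO, to between 2890 and 3260 in MEL202 against 7810 to 9970, and to between 5370 and 5760 in MP41 against 12000 to 12600. PMEL and TYRP1 make up most of these sums, and PAX3 in 92-1 was at 207 to 222 CPM against 202 to 216. PAX3 was lower without overlap in MEL202 (145 to 146 against 170 to 200 CPM) and MP41 (82.1 to 89.5 against 94.8 to 109 CPM). SOX10 was lower already at 4 h, at 11.8 to 18.2 CPM against 410 to 473 in 92-1. It stood at 50.4 to 77.4 against 386 to 678 in MEL202 and at 71.6 to 101 against 389 to 457 in MP41. At 4 h the melanocyte sums overlapped in MEL202 (6160 to 9110 against 8460 to 9790 CPM). They overlapped too in MP41 (11400 to 13300 against 12400 to 15900 CPM). In 92-1 these sums were lower without overlap (15500 to 17600 against 20500 to 22000 CPM). MLANA, PMEL, TYR, TYRP1, DCT, PAX3 and S100B overlapped at 4 h in MEL202 and MP41, as did MITF in MEL202. MITF in MP41 was lower (148 to 259 against 289 to 320 CPM). The values below are those at 24 h. The 5 fibroblast markers summed to between 32 and 40.2 CPM in MEL202 against 5.68 to 7.75 with DMSO, mostly through COL3A1 (28.5 to 36.3 against 3.64 to 5.82 CPM), while DCN was at most 0.0925 CPM and LUM at most 1.2 CPM with the drug. In 92-1 they summed to between 10.6 and 11.6 CPM against 3.31 to 3.86 with DMSO, mostly through COL1A1 (9.91 to 11.2 against 2.6 to 3.06 CPM), without overlap. In MP41, where AXL was higher as well, the fibroblast sums overlapped (27.5 to 37.6 against 27.3 to 40.5 CPM). The part of these markers in the receptor changes was not tested.

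DDR1, activated by collagen, changed in different directions. In 92-1 at 4 h it stood at 74.7, 77.7 and 79.5 CPM with DMSO and 34.5, 35.4 and 38.1 CPM with FHT-1015, and at 24 h at 67.1, 67.5 and 69.5 CPM against 96.5, 82.0 and 79.6 CPM. Treated libraries were therefore all below DMSO at 4 h and all above it at 24 h. The log2 fold change was -1.08 (SE 0.09, edgeR adjusted p 2.31e-07) and then 0.39 (SE 0.09, adjusted p 0.00105), a difference of 1.47 between the times (adjusted p 2.12e-07). In MP41 at 24 h DDR1 fell from 385, 500 and 292 CPM to 180, 182 and 182 CPM (log2 fold change -1.0, SE 0.16, adjusted p 0.000384), and in MEL202 it was not called (-0.29, SE 0.24, adjusted p 0.449). The difference among lines at 24 h was the clearest of the 10 receptors (edgeR adjusted p 0.000255).

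FGFR1 fell in 92-1 at both times and in MP41 at 24 h. The DMSO values of 92-1 at 24 h were 90.5, 91.2 and 89.6 CPM and the FHT-1015 values 52.8, 53.4 and 64.2 CPM, without overlap. Its log2 fold changes in 92-1 were -0.39 (SE 0.08, edgeR adjusted p 0.00232) at 4 h and -0.62 (SE 0.09, adjusted p 1.36e-05) at 24 h. In MP41 at 24 h it went from 22.0, 26.1 and 15.1 CPM to 11.4, 12.7 and 11.7 CPM (-0.71, SE 0.18, adjusted p 0.00793), a call that was lost when only the 6 samples compared were fitted (adjusted p 0.0552). The MEL202 value of FGFR1 at 24 h was 0.06 (SE 0.24, adjusted p 0.907), and the joint fit did not call a difference of FGFR1 among the lines at 24 h (edgeR adjusted p 0.0503). That difference passed with DESeq2 (adjusted p 0.0366) and limma-voom (8.11e-06), and in 7 of 36 edgeR fits without 1 library (down to 0.00682).

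ALK fell in 92-1 at 24 h, from 15.0, 19.2 and 24.1 CPM with DMSO to 5.46, 10.4 and 11.4 CPM with FHT-1015, with no overlap (log2 fold change -1.04, SE 0.22, edgeR adjusted p 0.000908). In MP41 it stood at 0.481, 0.445 and 0.328 CPM with DMSO at 24 h and at 0.568, 3.17 and 0.722 CPM with FHT-1015, so the groups did not overlap but 1 library, replicate 2, held 84 of the 114 treated reads. Its log2 value there was 1.94 (SE 0.79, adjusted p 0.0695), and without that library 0.73 (adjusted p 0.517). The test among lines called ALK at 24 h (edgeR adjusted p 0.0267), but not without that library (0.234), nor without MP41 DMSO replicate 1 (0.0516), 92-1 DMSO replicate 3 (0.0646) or 92-1 FHT-1015 replicate 1 (0.0699).

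IGF1R (chr15:98648539-98964530) rose in 92-1 at 24 h, from 91.6, 92.0 and 94.9 CPM with DMSO to 126, 130 and 135 CPM with FHT-1015, every treated library being higher (log2 fold change 0.54, SE 0.08, edgeR adjusted p 2.44e-05). At 4 h it was -0.03 (SE 0.08, adjusted p 0.829). It was not called in MEL202 (0.27 at 24 h, SE 0.38, adjusted p 0.686) or MP41 (-0.26, SE 0.22, adjusted p 0.376), and the difference of IGF1R among the lines at 24 h was not called (adjusted p 0.259). In MP41 it passed, as a lower value, with limma-voom (-0.49, adjusted p 0.00271) and with edgeR without DMSO 24 h replicate 3 (-0.52, 0.0416). EGFR was not called with FHT-1015 in MEL202 or MP41 at either time, and did not pass the filter on low counts in 92-1. At 24 h it stood at 0.813, 1.86 and 1.52 CPM with DMSO and 1.94, 1.48 and 1.3 CPM with FHT-1015 in MEL202, and at 4.33, 2.78 and 3.48 against 2.53, 2.0 and 3.38 CPM in MP41. These groups overlapped, and 186 exon bases of EGFR are shared with an antisense gene whose reads cannot be told apart in unstranded counts.

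With IDE196 in 92-1, ERBB3 and DDR1 rose and ALK and FGFR1 fell at 24 h; of these, ERBB3 had been called in the opposite direction with FHT-1015 at 24 h and the others in the same. At 4 h 1 of the 8 receptors tested changed (16.2% of all genes called), which was FGFR1, lower (9.3% of all genes fell), and at 24 h 4 of 8 (58.1%), 2 higher and 2 lower, against 28.7% of all genes higher and 29.4% lower. Groups did not overlap for 1 of the 8 receptors at 4 h (29.8% of all genes) and for 6 at 24 h (65.0%), and 3 of 8 differed between the times (30.7%). The share of receptors changed was thus not above that of all genes at either time.

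ERBB3 stood at 188, 162 and 198 CPM with DMSO at 4 h and at 189, 196 and 192 CPM with IDE196, which overlapped. At 24 h it stood at 187, 213 and 209 CPM with DMSO and at 763, 894 and 1050 CPM with IDE196. The lowest treated library was thus far above the highest DMSO library. IDE196 gave ERBB3 a log2 value of 0.10 (SE 0.11, edgeR adjusted p 0.618) at 4 h and 2.19 (SE 0.11, adjusted p 8.54e-11) at 24 h.

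ALK had the largest change of the 10 receptors with either drug. At 4 h it stood at 13.8, 19.8 and 32.9 CPM with DMSO and at 15.2, 18.4 and 33.7 CPM with IDE196. At 24 h the DMSO libraries held 502, 571 and 1019 reads (24.7, 30.3 and 48.5 CPM) and the IDE196 libraries 13, 11 and 2 reads (0.605, 0.575 and 0.118 CPM). The spread among DMSO libraries was wide, yet the lowest of them was far above the highest treated one. In log2 terms ALK was at 0.04 (SE 0.31, edgeR adjusted p 0.963) at 4 h and -6.21 (SE 0.50, adjusted p 1.27e-08) at 24 h, and the ratio of reads at 24 h was 0.0137 (95% interval 0.00893 to 0.0201). The treated level of ALK in 92-1 was then of the size seen in MEL202 and MP41 with DMSO (0.0521 to 0.823 CPM).

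DDR1 rose at 24 h from 113, 125 and 116 CPM with DMSO to 220, 213 and 201 CPM with IDE196, with no overlap (log2 fold change 0.87, SE 0.09, edgeR adjusted p 1.83e-07). FGFR1 fell at 24 h from 114, 114 and 103 CPM to 75.3, 72.3 and 68.4 CPM, again without overlap (-0.58, SE 0.10, adjusted p 5.44e-05). Its 4 h value of -0.30 (SE 0.10, adjusted p 0.0411) was lost without any of 8 single libraries (adjusted p from 0.0505 to 0.148): DMSO replicates 4 and 5 of either time, IDE196 replicates 2 and 3 at 4 h and IDE196 replicates 1 and 2 at 24 h. MET stood at 237, 165 and 104 CPM with DMSO at 24 h and at 134, 108 and 86.3 CPM with IDE196, which overlapped (-0.59, SE 0.26, adjusted p 0.0642, and from 8.88e-08 to 0.16 under 6 alternatives). Without 1 library the MET value ranged from -0.85 to -0.26 (adjusted p up to 0.419), and it passed in 3 of 12 such fits: without DMSO 4 h replicate 4 (0.0292), DMSO 24 h replicate 6 (0.00872) or IDE196 24 h replicate 1 (0.0427). TYRO3 and IGF1R were not called at 24 h, with log2 values of -0.10 (SE 0.07) and 0.23 (SE 0.14). The melanocyte markers summed to between 18600 and 21100 CPM with IDE196 at 24 h and to between 17900 and 20700 CPM with its DMSO. Within that list SOX10 stood at 1280 to 1420 CPM against 840 to 907 and DCT at 15.6 to 21 CPM against 1.22 to 3.35, neither with overlap. The other markers of the list overlapped, among them TYR (78.4 to 132 against 120 to 164 CPM), PMEL (6590 to 8200 against 7060 to 8840) and MITF (596 to 645 against 534 to 630). The fibroblast sum was 12.4 to 22.7 CPM with IDE196 against 7.24 to 11.9 with DMSO, mostly through COL1A1 (11.4 to 16.3 against 6.65 to 9.56 CPM). COL1A2, COL3A1, DCN and LUM overlapped. The part of these markers in the receptor changes was not tested.

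The drugs were compared in 92-1 as the FHT-1015 effect minus the IDE196 effect, each over its own DMSO, in a fit of 24 samples. At 4 h 4 of 8 receptors differed (24.6% of all genes), these 4 lower with FHT-1015 (14.0% of all genes were lower): ERBB3 by -2.78 (SE 0.16), MET by -1.45 (SE 0.33), DDR1 by -1.06 (SE 0.12) and TYRO3 by -0.93 (SE 0.10) on the log2 scale. At 24 h 5 of 8 differed (33.0%), 4 lower and 1 higher with FHT-1015, against 17.1% of all genes lower and 15.9% higher. ERBB3 differed by -5.17 (SE 0.17, edgeR adjusted p 2.51e-18) and ALK by 5.17 (SE 0.60, adjusted p 1.08e-07), followed by TYRO3 (-1.93, SE 0.10), MET (-1.84, SE 0.34) and DDR1 (-0.49, SE 0.12). FGFR1, which fell with both drugs, differed by -0.04 (SE 0.13, adjusted p 0.844) at 24 h. ERBB3 was the only receptor of the 7 tested with both drugs that was called in opposite directions at 24 h, as were 1043 of 14700 genes (7.1%). The doses of the drugs are not given in the sources used here, so the sizes are those of these treatments only.

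Among 30 other receptor tyrosine kinases, 12 of 13 tested changed in 92-1 with FHT-1015 at 24 h, 6 higher and 6 lower, 4 of 18 in MEL202 (3 higher) and 6 of 19 in MP41 (3 higher). These are 92.3%, 22.2% and 31.6% of those tested, against 60.6%, 18.8% and 36.1% of all genes. Their median log2 fold changes were 0.20, 0.09 and -0.01, against -0.00, -0.01 and 0.07 over all genes. At 4 h 3 of 13 fell in 92-1 (23.1%, with 29.5% of all genes called). PDGFRA, a receptor of platelet-derived growth factor, went from 0.749 ± 0.0946 CPM (SD, n = 3) with DMSO to 3.93 ± 0.897 in 92-1 and from 0.584 ± 0.0309 to 3.33 ± 0.923 in MEL202. The MEL202 call of PDGFRA (edgeR adjusted p 0.0262) was lost without any of the DMSO replicates 1, 2 and 3 or FHT-1015 replicates 2 and 3 at 24 h, with adjusted p up to 0.104. MERTK, the remaining TAM receptor, fell in MEL202 from 29.4 ± 2.48 to 7.29 ± 1.6 CPM, a log2 fold change of -1.96 (edgeR adjusted p 0.000359). ERBB2, the main partner of ERBB3, rose in MP41 from 111 ± 33.9 to 235 ± 7.91 CPM at 24 h (log2 fold change 1.18, edgeR adjusted p 0.00026), and in 92-1 and MEL202 its log2 values were 0.52 and 1.21 (adjusted p 8.28e-05 and 0.0117). At 4 h ERBB2 had been lower in 92-1 (-0.90, edgeR adjusted p 1.42e-06), a difference of 1.42 between the times. With IDE196, where ERBB3 rose, ERBB2 was also higher at 24 h (0.37, adjusted p 0.000327), as it was at 4 h (0.40, adjusted p 0.00102). NTRK2, a neurotrophin receptor, fell in 92-1 from 43.4 ± 5.75 to 5.16 ± 2.04 CPM, RET fell in MP41 from 6.35 ± 2.18 to 1.68 ± 0.12 CPM, and FGFR3 fell in 92-1 at 4 h from 16 ± 0.945 to 6.43 ± 1.12 CPM.

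With IDE196, 4 of 15 other receptors rose at 4 h and 11 of 15 changed at 24 h, 8 higher and 3 lower, with a median of 0.37 against 0.03 over all genes. That is 26.7% and 73.3% of those tested, against 16.2% and 58.1% of all genes. FGFR2 rose from 1.62 ± 0.316 to 4.77 ± 0.852 CPM at 4 h and from 1.08 ± 0.0926 to 11.4 ± 0.953 CPM at 24 h, while FGFR1 fell. NTRK2 rose at 24 h by a log2 value of 2.21 (edgeR adjusted p 8.19e-10), opposite to its fall with FHT-1015. FLT4, a receptor of the lymphatic endothelium, fell from 6.05 ± 1.21 to 1.89 ± 0.424 CPM.

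Of 31 genes of ligands for the 10 receptors, 11 of 15 changed with FHT-1015 in 92-1 at 24 h (5 higher, 6 lower), 5 of 19 in MEL202 (2 higher) and 9 of 17 in MP41 (1 higher), and 13 of 18 with IDE196 (9 higher). The medians were -0.39, -0.05, -0.09 and 0.39, against -0.00, -0.01, 0.07 and 0.03 over all genes. The shares called were 73.3%, 26.3%, 52.9% and 72.2%, against 60.6%, 18.8%, 36.1% and 58.1% of all genes. Among those called, HGF and FGF5 in MEL202 and EGF and FGF1 with IDE196 had passed the filter on low counts through too few libraries outside the group where each was highest. FGF9, a fibroblast growth factor, fell with both drugs in 92-1: from 103 ± 19.0 to 8.54 ± 3.23 CPM with FHT-1015 and from 91.0 ± 11.4 to 6.13 ± 0.662 CPM with IDE196 at 24 h, with log2 fold changes of -3.53 and -3.85. At 4 h it had fallen by a log2 value of -3.61 with FHT-1015 and -0.65 with IDE196. In MEL202 at 4 h FGF9 went from 4.27 ± 2.42 to 0.589 ± 0.145 CPM (-2.85, edgeR adjusted p 0.0272), a call lost with limma-voom (0.175), with only the samples compared (0.35) and in 7 of 12 fits without 1 library (up to 0.146). KITLG, the ligand of KIT, rose in 92-1 with FHT-1015 from 3.77 ± 0.561 to 14.2 ± 1.78 CPM at 24 h (edgeR adjusted p 1.86e-07), in the line with almost no KIT reads. The 4 h value of KITLG was 0.66 (edgeR adjusted p 0.0131), lost without DMSO replicate 1 (0.0695) or FHT-1015 replicate 2 (0.0601). HGF, the ligand of MET, had an average under 1 CPM in the MEL202 experiment and is named after seeing its values: it went from 0.158 ± 0.111 to 3.6 ± 0.273 CPM at 24 h (4.46, edgeR adjusted p 0.00073), and passed the filter on low counts only through that treated group. NRG1, a ligand of ERBB3, rose in MEL202 from 2.33 ± 0.483 to 6.67 ± 1.7 CPM, HBEGF, a ligand of EGFR, rose in MP41 from 11.9 ± 1.4 to 21.2 ± 1.01 CPM, and FGF2 rose with IDE196 from 0.999 ± 0.0635 to 5.68 ± 1.22 CPM. EGF fell in MEL202 from 3.3 ± 0.586 to 1.26 ± 0.318 CPM (edgeR adjusted p 0.0134), a call lost without DMSO replicate 2 or FHT-1015 replicate 1 or 3 (up to 0.0698), and IGF1 fell in MP41 from 1.77 ± 0.629 to 0.394 ± 0.0754 CPM.

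Of 38 adaptors and regulators of receptor signalling, 26 of 34 changed with FHT-1015 in 92-1 at 24 h (16 higher), 12 of 36 in MEL202 (9 higher), 19 of 34 in MP41 (11 higher) and 26 of 34 with IDE196 (16 higher). The medians were 0.28, 0.16, 0.16 and 0.21, against -0.00, -0.01, 0.07 and 0.03 over all genes, and the shares called 76.5%, 33.3%, 55.9% and 76.5%, against 60.6%, 18.8%, 36.1% and 58.1%. Among those called, GRB7 in MEL202 and MP41 and IGFBP5 in 92-1 passed the filter on low counts only through the FHT-1015 24 h libraries. PIK3R3, a regulatory subunit of PI3K, rose with FHT-1015 in each line at 24 h, by log2 values of 2.11, 2.01 and 2.53. At 4 h it was already higher in 92-1 (from 8.02 ± 0.351 to 18.6 ± 1.45 CPM, log2 fold change 1.24, edgeR adjusted p 9.22e-07) and in MEL202 (from 12.5 ± 0.997 to 27.7 ± 2.07 CPM, 1.16, adjusted p 0.0154). The MEL202 call of PIK3R3 was lost with only the samples compared (0.407) and without FHT-1015 4 h replicate 1 (0.0764) or 3 (0.0533). DOK5, a docking protein, rose with FHT-1015 in 92-1 from 10.2 ± 2.32 to 84.2 ± 3.03 CPM and fell with IDE196 from 32.4 ± 10.9 to 8.09 ± 2.09 CPM. IRS2, which carries signals of the insulin and IGF1 receptors, rose with IDE196 from 197 ± 22.1 to 595 ± 50 CPM. IGFBP5, which binds insulin-like growth factors, rose in MEL202 from 0.628 ± 0.371 to 13.3 ± 2.63 CPM, SH2B3 fell in MP41 from 51.1 ± 7.61 to 13.4 ± 2.36 CPM, and PTPRB, a receptor phosphatase, fell in 92-1 from 2.86 ± 0.888 to 0.266 ± 0.303 CPM. In MEL202 PTPRB went from 1.43 ± 0.294 to 0.275 ± 0.206 CPM (-2.34, edgeR adjusted p 0.0189), a call lost without DMSO replicate 1 or 3 or FHT-1015 replicate 2 at 24 h (up to 0.0658). At 4 h SHC4, an adaptor of the SHC family, fell in 92-1 with FHT-1015 from 9.31 ± 2.6 to 3.34 ± 0.506 CPM (-1.45), and SH2B2, another adaptor, fell with IDE196 from 11.3 ± 1.22 to 5.99 ± 0.437 CPM (-0.89).

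For each receptor the protein-coding gene with the most similar profile over the 48 samples was found by Pearson r of log2 CPM among about 10490 genes. The nearest were ALDH1B1 for ERBB3 (r = 0.959), CORO1C for MET (0.949), EHD4 for TYRO3 (0.969), ADCY7 for FGFR1 (0.981), SHROOM4 for DDR1 (0.921), MBD6 for IGF1R (0.923), PODXL for KIT (0.965), MPC1 for ALK (0.882), MAPT for EGFR (0.88) and SERINC3 for AXL (0.777). The 48 points come from only 3 lines and share libraries and depth, so a gene with the same order of lines scores high.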

How the data were processed

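RNA was poly(A)-selected from frozen pellets and sequenced, per the labels' protocols. The deposited files hold the authors' raw read counts per gene, with the column layout of STAR's gene counting; the aligner version, annotation and options are not given in the sources used here. The submitters' processing notes name hg38 and limma. The unstranded count column was used: the strand columns held 49.73% to 50.11% on the first strand in every library. The 92 spike-in rows held 0 reads. Reads falling in more than 1 gene (9.349% to 11.83% of those listed) were not assigned. Identifiers of 58552 of 58870 genes matched GENCODE 29.

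Each experiment (12 samples, 4 groups) was fitted with edgeR 4.0.16 (quasi-likelihood, TMM, filterByExpr, Benjamini-Hochberg adjusted p under 0.05 over all genes tested) in R 4.3.3; joint fits took 36, 24 or 18 samples. SE is the log2 fold change over the square root of F. Printed CPM use TMM over the 48 samples. Alternatives were DESeq2 1.42.0, limma 3.58.1 (voom with quality weights), RLE size factors, no low-count filter, the sum of both strand columns, only the samples compared, a replicate block and leaving out each library; for IDE196 a block within each arm was added after seeing the data. Genes with 10 reads or their equivalent in fewer than 3 libraries once 1 group was set aside were counted as passing the filter through that group alone. The test was tested on simulated data.

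From each list the called gene with the largest rise and fall per drug comparison was named, leaving out genes whose average in the experiment was under 1 CPM. Values of those genes in other comparisons, and of NTRK2, ERBB2 and HGF beside them, were added after seeing them. The members and lists were chosen with earlier results of these data known. The labels call the replicates biological; p-values measure the spread between these samples.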

Additional observations from a re-analysis of the deposited data

Results flagged for a closer look

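Effects that differed between the times are given as the log2 fold change at 24 h minus that at 4 h, tested as an interaction in edgeR's quasi-likelihood fit (adjusted p over all genes). With FHT-1015 in 92-1, 4 of 7 receptors differed (45.5% of all genes): MET by -1.24 (adjusted p 6.94e-05), TYRO3 by -1.14 (7.79e-07), IGF1R by 0.57 (0.000672) and DDR1 by 1.47 (2.12e-07). In MEL202 2 of 10 did (6.89%), ERBB3 by -1.97 (0.0173) and TYRO3 by -1.30 (0.0419). The TYRO3 call was lost in 10 of 12 fits without 1 library (adjusted p up to 0.111) and with the replicate block (0.0512), and that of ERBB3 without FHT-1015 24 h replicate 1 (0.0579) or 2 (0.0509). In MP41 7 of 10 did (18.6%): ERBB3 by -1.35 (0.00309), TYRO3 by -1.53 (0.000662), MET by -0.99 (0.0314), FGFR1 by -0.81 (0.0414), DDR1 by -0.75 (0.0367), KIT by 1.36 (0.00313) and AXL by 3.06 (0.0472). Of these, FGFR1 lost its call in 11 of 12 fits without 1 library (up to 0.1), and also without the low-count filter (0.0927) and with the replicate block (0.0555). DDR1 lost it in 10 of 12 (up to 0.0963), AXL in 9 (up to 0.221) and MET in 6 (up to 0.0861). AXL passed the filter on low counts only through the FHT-1015 24 h libraries. With IDE196 in 92-1 3 of 8 did (30.7%): ALK by -6.25 (1.04e-06), ERBB3 by 2.09 (6.46e-08) and DDR1 by 0.89 (3.73e-05).

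Effects of FHT-1015 that were not the same in the 3 lines were found by a joint F test. At 4 h this was ERBB3 (edgeR adjusted p 0.000597). At 24 h these were DDR1 (0.000255), KIT (0.0048), MET (0.00998) and ALK (0.0267), which lost its call without any 1 of 4 libraries (up to 0.234).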

How the results depend on the processing

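Of the gene results under alternatives that kept all libraries, 1107 kept direction and side of the threshold, 45 passed only there, 9 no longer passed and 9 changed sign; leaving out 1 library gave 3091, 29, 99 and 63. Values that changed sign were not called in the main result. With limma-voom they were IGF1R 0.03 (FHT-1015 92-1, 4 h), ALK -0.27 and FGFR1 -0.01 (MEL202, 24 h), ALK -0.26 and IGF1R 0.22 (MEL202, 24 h against 4 h), EGFR -0.40 (MP41, 24 h against 4 h), ALK -0.13 (IDE196, 4 h) and EGFR -0.23 (FHT-1015 against IDE196, 4 h), and with DESeq2 DDR1 0.00 (MEL202, 24 h against 4 h). The ranges of the values that changed sign without 1 library were: FHT-1015 92-1 4 h (IGF1R -0.06 to 0.03), FHT-1015 MEL202 4 h (ALK -1.34 to 0.05, EGFR -1.14 to 0.39, FGFR1 -0.28 to 0.19, IGF1R -0.08 to 0.77, MET -0.26 to 0.13), FHT-1015 MEL202 24 h (ALK -0.14 to 0.37, EGFR -0.05 to 0.50, FGFR1 -0.04 to 0.11), FHT-1015 MEL202 24 h against 4 h (DDR1 -0.25 to 0.16, EGFR -0.16 to 1.38, FGFR1 -0.14 to 0.33, IGF1R -0.49 to 0.35), FHT-1015 MP41 4 h (ALK -1.52 to 0.36, AXL -0.40 to 0.98, EGFR -0.62 to 0.04), FHT-1015 MP41 24 h against 4 h (EGFR -0.41 to 0.29, IGF1R -0.42 to 0.07), IDE196 92-1 4 h (ALK -0.38 to 0.43, DDR1 -0.06 to 0.06, IGF1R -0.12 to 0.24), IDE196 92-1 24 h against 4 h (IGF1R -0.02 to 0.34), FHT-1015 against IDE196 4 h (ALK -0.77 to 0.03, EGFR -0.19 to 3.09, FGFR1 -0.17 to 0.00, IGF1R -0.27 to 0.09), FHT-1015 against IDE196 24 h (FGFR1 -0.11 to 0.03), DMSO MEL202 against 92-1 (KIT -0.00 to 1.80), DMSO MP41 against 92-1 (ERBB3 -0.04 to 0.13). The cause was not tested.

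Counts of receptors called that moved by over 1.5 times, or from 0, were as follows. MP41 at 4 h, 0 in the main result, gave 1 without the low-count filter, with DESeq2, with only the samples compared and with the replicate block, and 2 with limma-voom. Of all genes 0.225% were called there in the main result, 1.09% with DESeq2 and 4.18% with limma-voom. IDE196 at 4 h, 1 in the main result, gave 2 without the filter and 0 with limma-voom and with only the samples compared. Its 24 h against 4 h count of 3 became 5 without the filter, with limma-voom and with the block within arms described below. Of all genes 16.2% were called at 4 h in the main result and 18.2% with limma-voom. For IDE196 at 24 h against 4 h these shares were 30.7% and 33.5%. MEL202 24 h against 4 h, 2 in the main result (6.89% of all genes), gave 4 with DESeq2 (11.8%) and limma-voom (16.0%). The difference among lines gave 2 without the filter and with DESeq2 and 5 with limma-voom at 4 h, where 1 was called, and 8 with limma-voom at 24 h, where 4 were. Leaving out 1 library gave 3 to 5 for MEL202 at 24 h, 0 to 2 for MEL202 24 h against 4 h, 3 to 7 for MP41 24 h against 4 h, 0 to 1 for MP41 at 4 h and for IDE196 at 4 h, 1 to 2 for the difference among lines at 4 h, and 3 to 5 for IDE196 24 h against 4 h.

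Replicate numbers are shared by DMSO and FHT-1015 samples of a line. Deviations of same-numbered samples correlated over 0.1 in 7 of 18 pairs (-0.322 to 0.508). Of the 18, 12 correlated best with their own number, among them every pair of MP41 (0.0566 to 0.171). These values do not settle whether the number marks a pairing. The main fits took no pairing, and the replicate block is given beside them. With the replicate block the MEL202 24 h against 4 h count went from 2 to 1, where TYRO3 had an edgeR adjusted p of 0.0512, and ERBB3 in MP41 at 4 h was -0.90 (0.044). No paired analysis was possible of IDE196 against DMSO because these arms share no replicate numbers. Within an arm the 4 h and 24 h samples share numbers, and their deviations correlated over 0.1 in 0 of 6 pairs (-0.0465 to 0.0949). With a replicate block within each arm, chosen after seeing the data, the IDE196 24 h against 4 h count went from 3 to 5, where MET (-0.82, edgeR adjusted p 0.00044) and EGFR (3.63, 0.0482) also passed. EGFR passed the low-count filter in this experiment only through the DMSO 4 h and IDE196 24 h libraries together, so its part in the counts of 5 without the filter and with this block is no support, and its value of 3.98 was 2.53 (0.192) without DMSO 4 h replicate 4. Few reads limited KIT in 92-1 and MEL202, AXL in every line, EGFR in 92-1 and ALK in MEL202 and MP41.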

Other observations

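Some low values rest on 1 library. EGFR with IDE196 at 4 h had 61 reads in the DMSO libraries, 46 of them in replicate 4, against 13 with the drug, and its log2 value of -2.04 (edgeR adjusted p 0.13) was -0.59 (adjusted p 0.737) without that library. AXL in 92-1 with IDE196 at 24 h had 19 reads, 14 of them in replicate 2, against 4 with DMSO, a read ratio of 5.24 (95% interval 1.74 to 21.2, counting error only), and did not pass the filter on low counts.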
